A study of Homo sapiens with 15 samples.

Results

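Messenger RNA levels of 10 genes whose proteins work with the kinesin KIF20A at the central spindle and midbody were followed through 15 RNA sequencing libraries. The genes, PRC1, RACGAP1, ECT2, KIF4A, AURKB, INCENP, BIRC5, CDCA8, PLK1 and ANLN, were chosen by symbol for the known roles of their proteins, and all 10 were found among the 60651 genes of one table and the 23792 genes of the other. All libraries carry the label MDA-MB231, a line of human breast cancer cells of the triple-negative type with mesenchymal features, and the cells were grown in DMEM with serum. A depletion dataset held 3 libraries each of CTRL (labelled wild type), SG1 and SG3 (both labelled as KIF20A knockdown), and an overexpression dataset had 3 libraries each of EV (labelled wild type) and KIF20A_OE (labelled as KIF20A overexpression). The labels do not say what SG1 and SG3 denote, whether a line is 1 clone, or whether replicates were separate cultures. The p-values therefore set each group difference only against the spread among these libraries, and that spread may be technical.

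When chromosomes separate, the antiparallel microtubules left between them are bundled into the central spindle, which positions the contractile ring and later becomes the midbody. PRC1 is the microtubule bundler, KIF4A is the kinesin that limits the growth of the bundle, and RACGAP1 (a subunit of centralspindlin) recruits ECT2, the exchange factor that activates RhoA under the membrane. The chromosomal passenger complex is made of the kinase AURKB and the subunits INCENP, BIRC5 (survivin) and CDCA8 (borealin). KIF20A brings this complex to the central spindle and is also a docking partner of the kinase PLK1, while ANLN (anillin) scaffolds actin, myosin and septins in the ring. Most of these mRNAs belong to the late cell-cycle group whose transcription peaks in G2 and mitosis, and the CHR element TTTGAA near the start site, often with CCAAT boxes upstream, is a known feature of such genes.

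The promoter windows in RefSeq (GRCh38.p14), which cover 250 bases before each annotated start, held 8 of the 10 genes; RACGAP1 and BIRC5 were not in the table. TTTGAA, searched on both strands, was found for 7 of these 8 genes, against 13.3% of 35116 windows and 16.1% of 27305 genes in the table. Within the last 60 bases it was found for 6 of the 8 genes, or 6 of their 10 windows, against 2.71% of all windows. The stretches of 30 bases around these matches are shown because they are the sequence feature that most of the genes share, with the motif in capitals and each stretch read 5′ to 3′ along the gene.
PRC1, chr15:90994538-90994567, minus strand: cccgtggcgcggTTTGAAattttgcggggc
KIF4A, chrX:70290058-70290087, plus strand: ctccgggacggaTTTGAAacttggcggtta
INCENP, chr11:62123981-62124010, plus strand: ggattggctgagccttcagtTTTGAAaatc
CDCA8, chr1:37692481-37692510, plus strand: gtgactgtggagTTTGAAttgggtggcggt
PLK1, chr16:23678848-23678877, plus strand: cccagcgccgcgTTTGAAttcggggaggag
ANLN, chr7:36389830-36389859, plus strand: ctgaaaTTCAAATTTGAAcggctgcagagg
The motif began 10 bases before the start in INCENP and 34 bases before it in KIF4A, with the other 4 in between. These distances refer to the RefSeq starts. In the GENCODE 29 annotation all 30 bases shown for PRC1, INCENP, CDCA8, PLK1 and ANLN lie inside an exon of the gene. For KIF4A 0 of the 30 do. In ANLN the match lies inside a palindrome (all in capitals), so the opposite strand holds a second match that adjoins the first. ECT2 had its match farther out, 115 bases before one start and 182 and 242 bases before another, and AURKB had none in either of its windows. CCAAT, on either strand, was found for 7 of the 8 genes, all but ANLN, against 37.0% of genes in the table. The variant TTCGAA was found for none of them, against 1.5% of genes. The KIF20A window held CCAAT 67 and 94 bases before the start and no TTTGAA. These are matches of letters in a window and no test was made of them.

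Levels in the depletion dataset are counts per 1000000 (CPM, with scaled library totals), and those in the overexpression dataset are fragments per 1000000 (FPM). Library totals were 40.9 to 51.0 M counts and 16.0 to 22.2 M recovered fragments, with M for 1000000. KIF20A itself was at 154, 171 and 160 CPM in the CTRL libraries, 123, 147 and 91.5 in SG1, and 86.3, 60.8 and 79.1 in SG3. All SG1 and SG3 libraries lay below all CTRL libraries, the SG3 libraries were the lowest, and some KIF20A mRNA remained in each. The log2 difference from CTRL was -0.42 in SG1 (95% interval -0.80 to -0.05, edgeR quasi-likelihood adjusted p = 0.913) and -1.10 in SG3 (-1.48 to -0.72, adjusted p = 0.33). KIF20A passed the adjusted threshold of 0.05 in SG3 with DESeq2 (adjusted p = 0.000166) and without a filter on low counts (1.85e-07), but not in the main edgeR fit. The unfiltered fit gave the genes of the set other than PRC1 nearly equal SEs. In SG1 against CTRL they were 0.158 to 0.161, against 0.146 to 0.184 in the main fit. Its adjusted p-values thus reflect little of the spread of each single gene. In the overexpression dataset it was at 101, 143 and 124 FPM in EV and at 1348, 269 and 896 FPM in KIF20A_OE, so the KIF20A_OE libraries were all higher and lay far apart from one another. Mitochondrially encoded mRNAs took 0.962 to 2.55% of counts in CTRL, 1.47 to 3.41% in SG1 and 0.975 to 2.03% in SG3, with the groups overlapping.

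The libraries labelled KIF20A_OE had nearly lost 3 of 5 marker genes that the labelled line should show, and every comparison of EV with KIF20A_OE below rests on them. CD44, a hyaluronan receptor, was at 523 to 788 FPM in EV and at 0.125 to 1.23 FPM in KIF20A_OE. AXL, a receptor tyrosine kinase, was at 811 to 1107 FPM against 0.75 to 0.811 FPM, and CAV1 (caveolin) at 664 to 771 FPM against 13.8 to 26.5 FPM. The other 2 were present at lower levels, the filament protein VIM at 347 to 776 FPM in KIF20A_OE (2520 to 2735 FPM in EV and 536 to 816 CPM in the depletion dataset) and the keratin KRT18 at 122 to 142 FPM (346 to 439 FPM in EV). The 5 markers expected in the line summed to 4865 to 5701 FPM in EV, to 490 to 925 FPM in KIF20A_OE, and to 4654 to 5633 CPM in the depletion dataset. In the other direction CDKN2A, chosen after its values were seen, had no fragment in EV and no count in CTRL, SG1 or SG3, and was at 276 to 353 FPM in KIF20A_OE. A difference between cells and a response to KIF20A therefore cannot be told apart in this dataset. Leukocyte markers summed to at most 10.6 CPM or 5.59 FPM, endothelial markers to at most 35.97 FPM and fibroblast markers to at most 84.8 FPM in any group. The endothelial maximum was KIF20A_OE replicate 2, with PECAM1 at 35.8 FPM against 0.689 and 0.321 FPM in replicates 1 and 3. ESR1, PGR, ERBB2, CDH1 and GATA3, expected to be low in the line, summed to 106 to 169 CPM in the depletion dataset. The sums were 68.4 to 87.6 FPM in EV and 60.3 to 68.9 FPM in KIF20A_OE, and ERBB2 made up most of them.

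Of the 10 genes, 9 were measured at depth in every library and PRC1 was not. PRC1 (chr15:90966038-90995629, minus strand, coordinates here and below from GENCODE 29 on GRCh38) had 28 to 49 counts per depletion library and 10 to 50 fragments per overexpression library. Its level was 0.882, 0.83 and 0.639 CPM in CTRL, 0.927, 1.00 and 0.791 in SG1, and 0.533, 1.02 and 0.916 in SG3. These values lie far below every other gene of the set, and the groups overlap. In the annotation 57.6% of the exon bases of PRC1 are shared with a readthrough gene on the same strand (AC068831.7), and 7.35% lie under the antisense gene PRC1-AS1. The readthrough gene had 213 to 443 counts in the same libraries, and PRC1 took 7.38 to 15.4% of the counts of the 3 features together. The authors' rule for reads shared by overlapping genes (not given in the sources used here) bears on these counts, so the PRC1 values are uncertain, and the sum of the 3 features was run as an alternative. NUSAP1, a microtubule bundler of the wider cytokinesis list, was likewise low (0.371 to 1.17 CPM) and shares 62.2% of its exon bases with a same-strand gene. The copies KIF4B, RACGAP1P1 and AURKC were at or under 1.12 CPM or FPM.

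Divided by the length of the merged exons, ANLN (chr7:36389806-36453791) had the highest mRNA level in CTRL with 126 ± 26.1 CPM per kilobase (SD, n = 3). CDCA8 (chr1:37692418-37709719) followed with 60.8 ± 2.79, then BIRC5 (chr17:78214186-78225636) with 50.3 ± 4.59 and ECT2 (chr3:172750682-172821474) with 49.3 ± 8.44. The CTRL libraries of ANLN lay above all those of CDCA8, and those of CDCA8 above all those of BIRC5, while BIRC5 and ECT2 overlapped. AURKB (chr17:8204733-8210600) was at 41.0 ± 5.20 CPM per kilobase, close to KIF20A at 40.9 ± 2.21. KIF4A (chrX:70290090-70420832), RACGAP1 (chr12:49976923-50033136), INCENP (chr11:62123973-62153163) and PLK1 (chr16:23677656-23690367) fell between 31.6 and 34.2 CPM per kilobase and overlapped with one another, while the CTRL libraries of KIF4A lay below all those of KIF20A. PRC1 stood last with 0.142 ± 0.0232. The order depends on the length used: with the longest transcript in place of the merged exons AURKB moved from 5th to 2nd place of 11, and KIF4A from 7th to 10th. ANLN remained first in CTRL, SG1, SG3 and EV with either length, and fell to place 10 (merged exons) or 9 (longest transcript) of 11 in KIF20A_OE.

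No gene of the set passed the test in the depletion dataset. In SG1 against CTRL 0 of the 10 were called (background 0.0% of 16786 genes), and 8 of 10 had a positive log2 difference with a median of 0.23, against a median of -0.0019 and 49.7% positive over all genes tested. The libraries of SG1 and CTRL overlapped for all 10 genes, where 12.2% of all genes had groups that did not overlap. ANLN, the ring scaffold, was at 641, 697 and 936 CPM in CTRL and 973, 1184 and 817 CPM in SG1. The SG1 libraries leaned high, but the lowest of them lay below the highest CTRL library. ANLN had a log2 difference of 0.39 (95% interval 0.02 to 0.75, edgeR adjusted p = 0.913), and ECT2, the RhoA activator, of 0.36 (0.01 to 0.70, adjusted p = 0.913).

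The remaining spindle genes and the kinase PLK1 showed smaller positive differences in SG1. RACGAP1 was at 134, 143 and 171 CPM in CTRL and 185, 210 and 143 CPM in SG1, a log2 difference of 0.26 (95% interval -0.07 to 0.60). KIF4A was at 147, 146 and 173 CPM against 200, 210 and 148 CPM, a log2 difference of 0.26 (-0.06 to 0.58). For both genes SG1 replicate 3 sat among the CTRL libraries while the other 2 SG1 libraries were above all of them. PLK1, at 139, 162 and 150 CPM in CTRL and 181, 207 and 148 CPM in SG1, had the same arrangement, with a log2 difference of 0.25 (-0.14 to 0.63).

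The chromosomal passenger subunits had values from -0.08 to 0.19 in SG1 against CTRL, and whether they differ from the other genes was not tested. CDCA8 was at 146, 147 and 158 CPM in CTRL and 172, 190 and 150 CPM in SG1, with a log2 difference of 0.19 (95% interval -0.12 to 0.50). AURKB was at 101, 96.2 and 78.8 CPM against 91.9, 81.5 and 87.9 CPM, with a log2 difference of -0.08 (-0.45 to 0.29). All 3 SG1 values of AURKB fell inside the CTRL range, so no shift of the kinase was seen at this spread. INCENP (160, 151 and 118 CPM in CTRL, 144, 165 and 130 in SG1) and BIRC5 (173, 194 and 208 in CTRL, 202, 204 and 161 in SG1) had log2 differences of 0.04 and -0.02. None of the 4 had an interval that left out 0. With the sign of each library's GC difference (described below) as a block, INCENP was at 0.40, CDCA8 at 0.27, AURKB at 0.25 and BIRC5 at 0.078, against 0.20 for ANLN and 0.14 for ECT2, so the order of these genes depends on that setting.

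In SG3, where KIF20A was lowest, the 95% interval of each of the 10 genes included 0, so shifts inside these intervals cannot be told from none. None of the 10 was called (background 0.0%), 2 of 10 were positive, and the median log2 difference from CTRL was -0.08 against -0.01 over all genes tested, of which 46.7% were positive. Libraries overlapped for all 10 genes, where 4.66% of all genes had groups apart. AURKB had the lowest value, -0.20 (95% interval -0.57 to 0.17), from 57.9, 88.0 and 94.2 CPM. PLK1 was at 104, 159 and 169 CPM, INCENP at 98.3, 162 and 149, BIRC5 at 133, 193 and 191, and CDCA8 at 117, 150 and 158 CPM. In each of these 5 genes SG3 replicate 1 lay below all CTRL libraries and the other 2 SG3 libraries did not.

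The count of positive genes and the sign of the median in SG3 depended on replicate 1. Without that library 8 of the 10 genes were positive in SG3 against CTRL and the median was 0.02. ANLN was at 734, 678 and 683 CPM in SG3 and ECT2 at 279, 219 and 239 CPM, with log2 differences of -0.12 (95% interval -0.48 to 0.25) and -0.14 (-0.48 to 0.20). RACGAP1 (137, 143 and 150 CPM) and KIF4A (166, 145 and 159 CPM) had log2 differences of -0.06 and 0.02. For these 4 genes SG3 replicate 1 was not apart from its group in the way it was for the passenger genes. It was the highest SG3 library for ANLN, ECT2 and KIF4A and the lowest for RACGAP1.

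**Figure D1:**
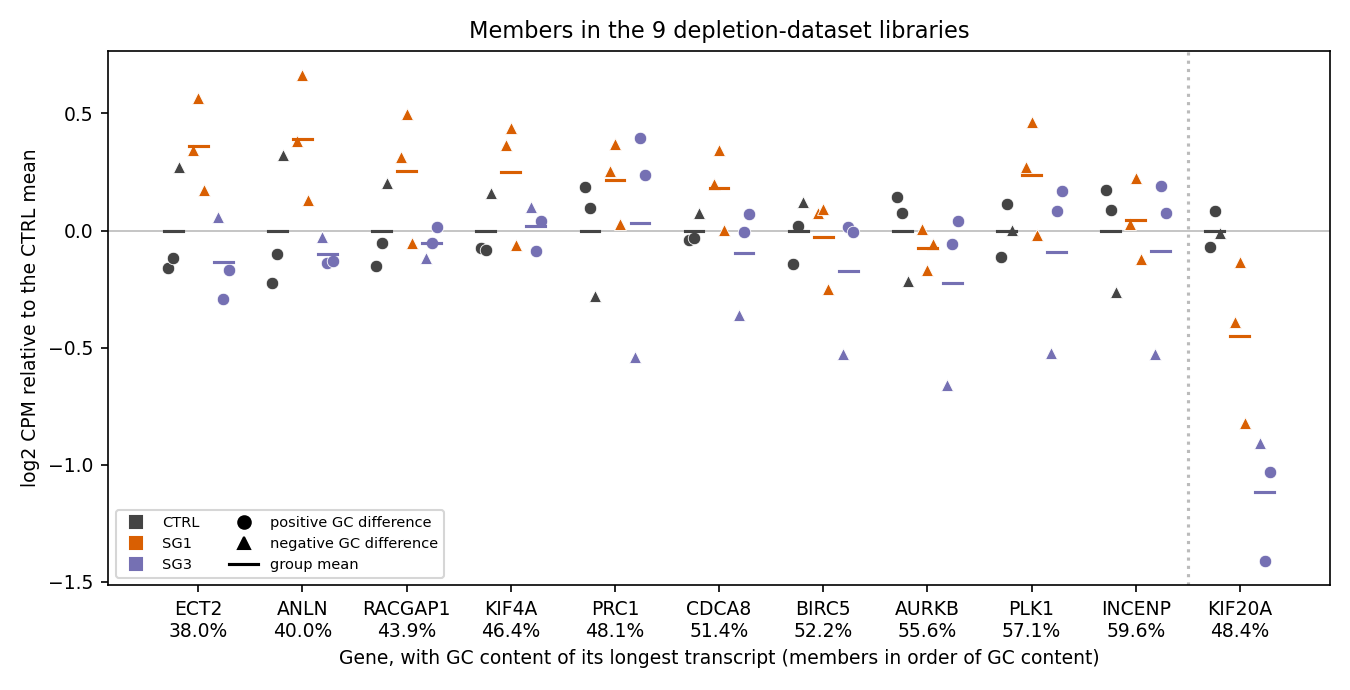
Level of each gene in the 9 depletion-dataset libraries as log2 CPM relative to the CTRL mean (y axis), with genes on the x axis in order of transcript GC content and KIF20A at the right. Points are libraries coloured by group, circles and triangles mark a positive or negative GC difference of the library, and short lines are group means; ECT2 and ANLN at the left have triangles high, AURKB and INCENP at the right have SG3 replicate 1 low at about -0.5 or less, and KIF20A is below 0 in all SG1 and SG3 libraries.

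Set directly against each other, SG1 had the higher mean in all 10 genes, with a median log2 difference of 0.26 against 0.01 over all genes tested, of which 51.9% were positive. None was called (background 0.0%). ECT2 and ANLN had all 3 SG1 libraries above all 3 SG3 libraries, where 10.8% of all genes had groups that did not overlap and 6.26% had SG1 above. Their log2 differences were 0.50 ± 0.16 and 0.51 ± 0.17 (SE), with an edgeR adjusted p of 0.861 for both. Without SG3 replicate 1, 6 of the 10 genes were positive, the median was 0.11 and edgeR called 5 genes of the whole table, none of them among the 10. KIF20A was 0.68 higher in SG1 than in SG3 on the log2 scale (95% interval 0.30 to 1.06, adjusted p = 0.861), a difference that passed with edgeR without the filter on low counts (0.64, adjusted p = 0.0261). The limit of the unfiltered fit given above holds here too. These 3 comparisons share libraries and are given side by side, not as support for each other.

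The depletion libraries differed in the balance between GC-rich and AT-rich transcripts. Each library was given a GC difference, which is the mean log2 deviation of genes with a transcript GC content of at least 57.9% minus that of genes at or under 41.1%. It was positive in CTRL replicates 1 and 2 (0.37 and 0.30) and SG3 replicates 2 and 3 (0.44 and 0.35). It was negative in CTRL replicate 3 (-0.39), in the 3 SG1 libraries (-0.18, -0.28 and -0.24) and in SG3 replicate 1 (-0.39). All SG1 libraries were thus on the negative side, so this property and the SG1 group can be told apart only through CTRL replicate 3 and SG3 replicate 1.

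Between the 5 negative and the 4 positive libraries, the AT-rich transcripts ECT2 (GC content 38.0%) and ANLN (40.0%) differed by 0.46 and 0.44 on the log2 scale. AURKB (55.6%) and INCENP (59.6%) differed by -0.27 and -0.26. All tested genes of like composition had medians of 0.29 (36 to 39% GC), 0.22 (39 to 42%), -0.14 (54 to 57%) and -0.20 (57 to 60%). ECT2 and ANLN therefore exceeded the median for their composition, and AURKB fell below it, while PLK1 (57.1%) at -0.02 lay above the median of its bin. Inside CTRL alone, replicate 3 differed from replicates 1 and 2 by 0.41 in ECT2, 0.49 in ANLN, -0.32 in AURKB and -0.39 in INCENP, in libraries with the same label. The sides were set from the levels of GC-rich and AT-rich genes in these same libraries. Opposite signs at low and high GC content thus follow from the definition and are no separate result.

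With a correction for GC content in the edgeR fit, 10 of the 10 genes were positive in SG1 against CTRL with a median of 0.22, and none was called. With the sign of the GC difference as a block the count was also 10 and the median 0.23. Among the positive libraries alone, 8 of the 10 genes were positive in SG3 against CTRL, with a median of 0.06. Among the negative ones 9 were positive in SG1 against CTRL (median 0.13), with CTRL replicate 3 as the lone control, whose spread is assumed to equal that of the other group. For SG3 that side holds only replicate 1 against CTRL replicate 3, 1 library against 1, and 0 of the 10 genes were positive (median -0.32), which describes these libraries only. What part base composition has in the levels of these genes was not tested beyond these fits.

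**Figure D2:**
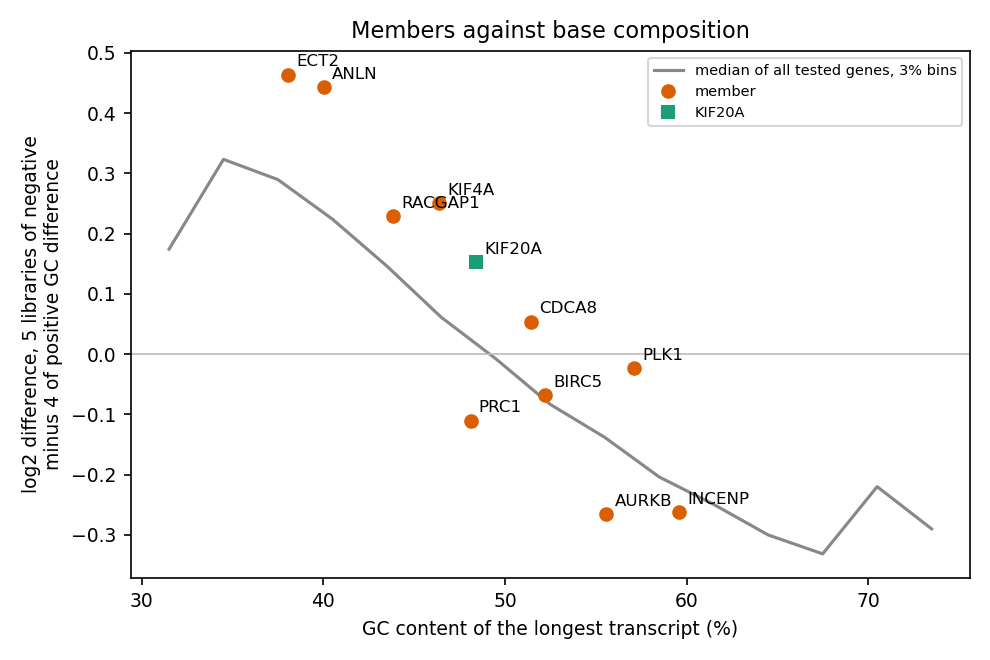
Difference in log2 CPM between the 5 libraries of negative and the 4 of positive GC difference (y axis) against the GC content of the longest transcript (x axis) for the 10 genes and KIF20A, with the grey line giving the median of all tested genes in 3% bins. The genes run from 0.46 in ECT2 to -0.27 in AURKB. The grey line falls over the same range of GC content, which follows from how the negative and positive libraries were defined.

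Across the 9 depletion libraries some of the genes varied closely together. Pearson's r of log2 levels was 0.97 between ANLN and ECT2, 0.94 between ANLN and RACGAP1, and 0.92 between RACGAP1 and KIF4A. It was 0.96 between CDCA8 and PLK1 and 0.81 between AURKB and its activator INCENP. No grouping of the genes was tested, and r was also 0.84 between RACGAP1 and CDCA8 and 0.69 between CDCA8 and ANLN, 0.50 between AURKB and CDCA8, and -0.28 between AURKB and ECT2. The correlations with KIF20A ran from -0.10 (PRC1) to 0.44 (ECT2), and on deviations from the group means from -0.39 (AURKB) to 0.81 (KIF4A). The 9 points share the GC property above and 3 groups, so these values are descriptions of these libraries. The 5 genes outside the set most like it over these libraries, by mean r with the 10 among 10507 genes, were ADGRF5, GPI, FAM83D, KIF2C and IFT122 (0.706 to 0.710), and none of the 5 remained when deviations from group means were used. Over the 6 overexpression libraries, which fall into 2 groups far apart, they were TK1, UTP11, NCAPD2, CDC6 and PHLPP1 among 11962 genes (0.561 to 0.566), and again none remained.

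In the overexpression dataset 7 of the 10 genes differed between KIF20A_OE and EV, 5 higher and 2 lower (limma adjusted p under 0.05), beside 69.6% of 15265 genes tested, 46.2% higher and 23.4% lower. The same 7 had groups that did not overlap, beside 74.1% of all genes (48.9% with KIF20A_OE above and 25.2% below), so the share of the set that differed is close to the background. The genes moved apart: BIRC5, PLK1, INCENP, AURKB and PRC1 were higher, ANLN and ECT2 were lower, and RACGAP1, KIF4A and CDCA8 did not pass. The median of all genes tested was shifted by 0.37 on the log2 scale in KIF20A_OE. With TMM scaling, which aligns the bulk of the genes, this shift was 0.02 and 50.5% of called genes were higher, against 66.4% without it, so each value below is followed by its TMM-scaled one where the call or sign changes.

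ANLN had the largest log2 difference of the 10 in the limma fit. It was at 380, 551 and 462 FPM in EV and at 131, 167 and 170 FPM in KIF20A_OE, with all KIF20A_OE libraries under all EV libraries. On the log2(FPM + 1) scale it fell by 1.56 ± 0.17 (SE, limma adjusted p = 5.83e-05). ECT2 fell by 0.53 ± 0.14 (adjusted p = 0.0098), from 180, 239 and 227 FPM to 139, 143 and 164 FPM, again with the groups apart. Under TMM scaling ANLN fell by 1.93 and ECT2 fell by 0.89. Both genes kept their call under all 13 alternatives.

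The other spindle genes did not follow ANLN and ECT2. RACGAP1, which recruits ECT2, was at 102, 159 and 102 FPM in EV and 126, 116 and 141 FPM in KIF20A_OE, a log2 difference of 0.11 (95% interval -0.32 to 0.54, adjusted p = 0.632) that was -0.26 under TMM scaling. The ratio of RACGAP1 to ECT2, which no library scaling can change, was -0.86 ± 0.29 on the log2 scale in EV and -0.22 ± 0.08 in KIF20A_OE (SD, n = 3 each). KIF4A was at 87.6, 159 and 73.7 FPM in EV and 114, 160 and 139 FPM in KIF20A_OE, a log2 difference of 0.43 (-0.19 to 1.06). Under TMM scaling KIF4A was at 0.064 (limma adjusted p = 0.85), and with edgeR on recovered fragments at -0.0049 (adjusted p = 0.989). EV replicate 2 had the highest EV value for both genes. Without it KIF4A passed the test (0.76, limma adjusted p = 0.0065), on values without TMM scaling.

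PRC1 was at 0.476, 0.725 and 0.823 FPM in EV and 3.13, 2.25 and 1.77 FPM in KIF20A_OE, from 10 to 15 and 33 to 50 fragments. It rose by 1.00 on the log2(FPM + 1) scale (adjusted p = 0.00289), which understates the change of so low a gene: edgeR on the recovered fragments gave 1.45 (adjusted p = 0.0109). The 3 features of its locus together were at 8.22 ± 1.85 and 39.2 ± 6.56 FPM (SD, n = 3 each), a log2 difference of 2.13 (adjusted p = 3.30e-05). The readthrough gene and PRC1-AS1 rose along with PRC1, from 6.89 ± 1.53 to 31.0 ± 4.39 FPM and from 0.658 ± 0.152 to 5.80 ± 1.57 FPM.

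Within the chromosomal passenger complex the subunits changed unequally. BIRC5 rose from 89.9, 165 and 135 FPM to 275, 354 and 327 FPM, a log2 difference of 1.32 ± 0.22 (SE, adjusted p = 0.000697). INCENP rose from 71.8, 123 and 89.0 FPM to 163, 181 and 171 FPM, by 0.88 ± 0.19 (adjusted p = 0.00289). Both had every KIF20A_OE library above every EV library, and under TMM scaling their differences were 0.95 and 0.52, still past the threshold. AURKB went from 62.2, 102 and 80.6 FPM to 123, 151 and 108 FPM, by 0.65 ± 0.20 (adjusted p = 0.0187). Its call ended under TMM scaling (0.28, adjusted p = 0.224), with edgeR on recovered fragments (0.27, 0.253) and with a GC correction (0.33, 0.183), so it was not firm. It also ended without EV replicate 1 (limma adjusted p = 0.0538) or KIF20A_OE replicate 2 (0.0728). CDCA8 was at 71.4, 118 and 86.0 FPM in EV and 95.2, 89.9 and 73.9 FPM in KIF20A_OE, a log2 difference of -0.07 (95% interval -0.51 to 0.38, adjusted p = 0.778). Its difference was -0.43 under TMM scaling (limma adjusted p = 0.0727) and -0.46 with edgeR on recovered fragments (adjusted p = 0.0654), not called in either.

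As shares of the summed per-length level of the 4 subunits, BIRC5 made up 26.3 ± 1.80% in EV and 39.1 ± 3.37% in KIF20A_OE, and CDCA8 28.9 ± 1.22% and 16.4 ± 2.34% (SD, n = 3 each). For both subunits the 3 EV and 3 KIF20A_OE libraries were apart. INCENP took 16.4 ± 0.54% and 18.0 ± 0.94%, a smaller difference with the libraries also apart, and AURKB 28.4 ± 0.56% and 26.5 ± 2.38%, with the groups overlapping. In the depletion dataset the shares moved little: CDCA8 took 33.1 ± 2.15% in CTRL, 36.3 ± 1.296% in SG1 and 34.2 ± 2.02% in SG3, and BIRC5 27.4 ± 2.88%, 26.0 ± 1.20% and 26.8 ± 0.38%. These are shares of mRNA and say nothing of the protein complex.

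**Figure D3:**
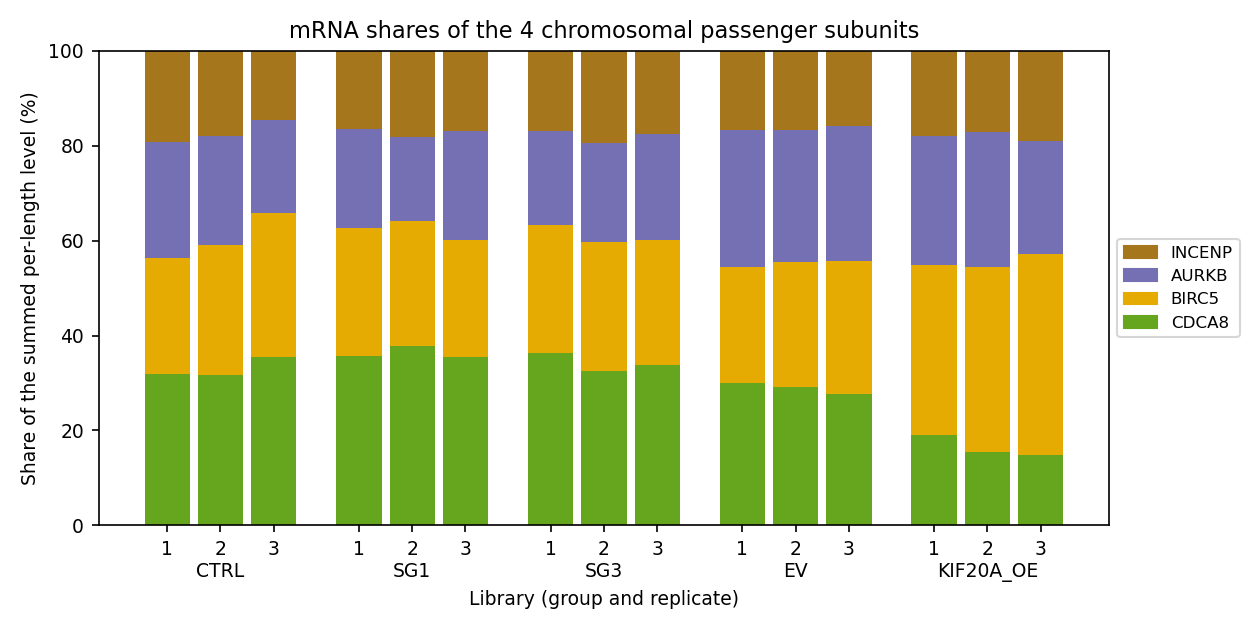
Share of AURKB, INCENP, BIRC5 and CDCA8 in their summed level per kilobase of merged exon (y axis, percent) in each of the 15 libraries (x axis, by group and replicate). In KIF20A_OE the CDCA8 segment is 14.8 to 19.1% and the BIRC5 segment 35.7 to 42.4%, against 27.6 to 30.03% and 24.5 to 28.1% in EV.

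PLK1, the kinase that docks on KIF20A, was at 71.9, 125 and 92.8 FPM in EV and 185, 223 and 216 FPM in KIF20A_OE. All KIF20A_OE libraries were above all EV libraries, and PLK1 rose by 1.13 ± 0.20 on the log2 scale (SE, adjusted p = 0.000915), or 0.77 under TMM scaling. The log2 ratio of PLK1 to ECT2 went from -1.18 ± 0.21 in EV to 0.49 ± 0.13 in KIF20A_OE, and that of INCENP to ANLN from -2.31 ± 0.13 to 0.15 ± 0.15 (SD, n = 3 each). In CTRL these ratios were -0.84 ± 0.25 and -2.40 ± 0.52, nearer to EV than to KIF20A_OE. The 2 tables were scaled separately, which leaves such ratios within a library unchanged.

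**Figure D4:**
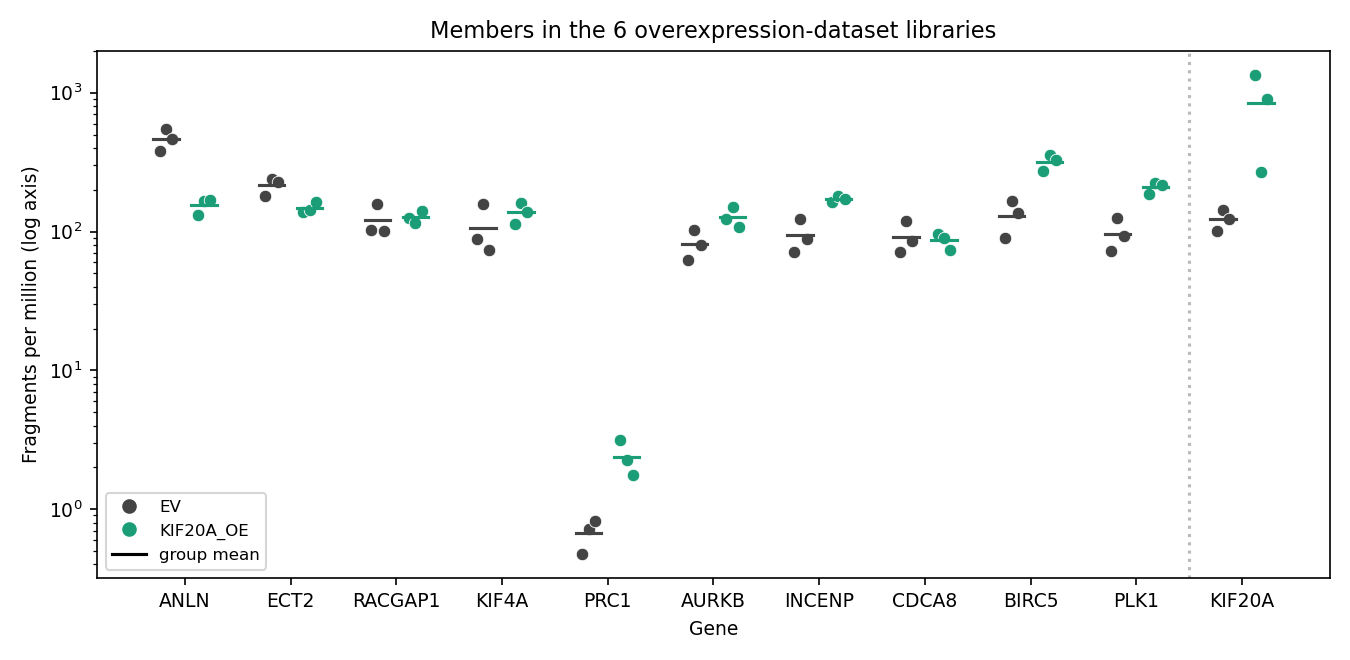
Level of each gene in the 6 overexpression-dataset libraries in FPM on a log axis (y axis), with genes on the x axis ordered by role and KIF20A at the right; points are libraries and short lines group means. ANLN and ECT2 have KIF20A_OE below EV, PRC1, AURKB, INCENP, BIRC5 and PLK1 have it above, and KIF20A itself spreads from 269 to 1348 FPM in KIF20A_OE.

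KIF20A differed widely among the 3 KIF20A_OE libraries, and the genes did not follow it there. Replicate 2, which had 269 FPM of KIF20A against 1348 and 896, had the highest AURKB, INCENP, BIRC5, PLK1 and KIF4A values of the group, intermediate PRC1, ECT2, CDCA8 and ANLN values, and the lowest RACGAP1 value. With 3 libraries no test of this order was made.

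**Figure D5:**
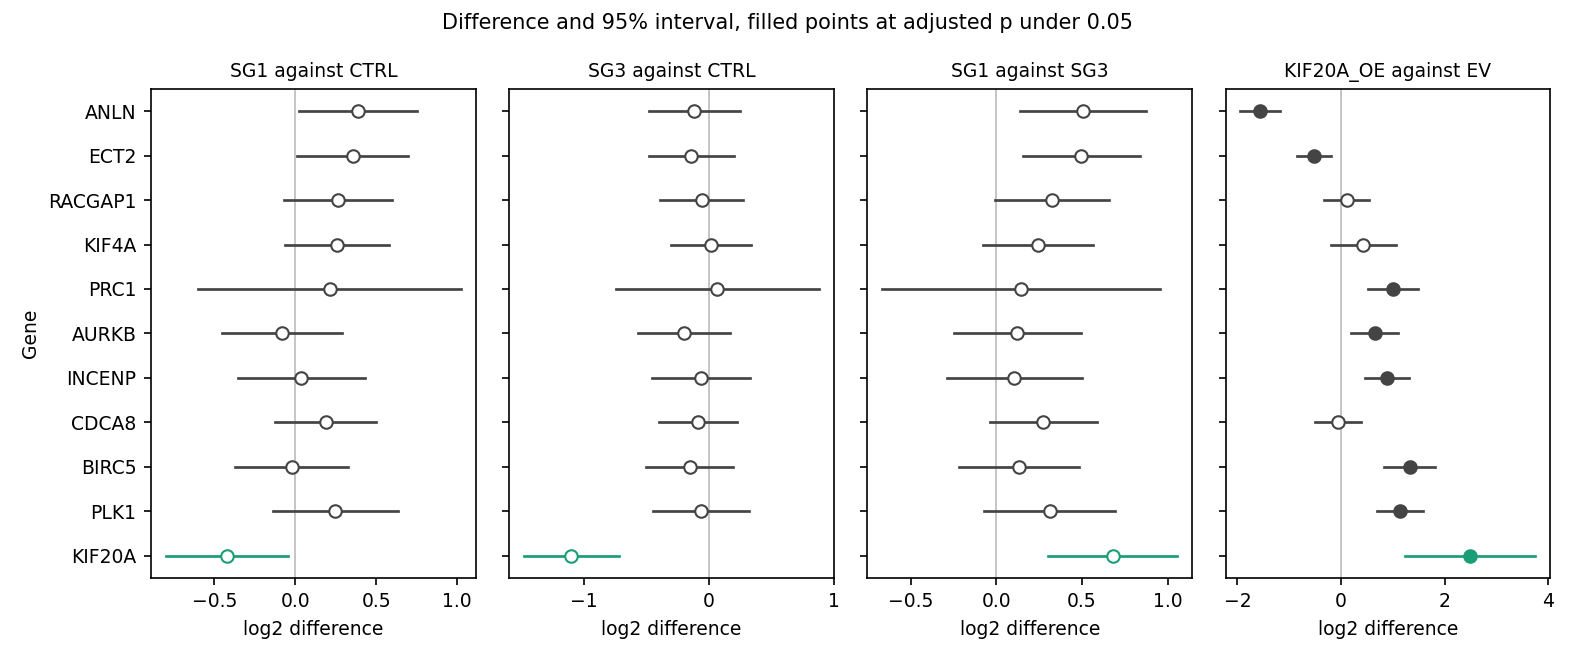
Log2 difference (x axis) with its 95% interval for each gene (y axis) in the 4 comparisons, from edgeR for the depletion dataset and limma on log2(FPM + 1) for KIF20A_OE against EV; filled points passed an adjusted p of 0.05 and the x axes differ in scale. No point is filled in the 3 depletion panels, and 7 of the 10 genes and KIF20A are filled in the panel of KIF20A_OE against EV.

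The wider list of 36 other cytokinesis genes was laid beside the 10. In SG1 against CTRL none of the 36 was called, 26 were positive and the median log2 difference was 0.17. The extremes were NUSAP1 (0.97, from very low counts) and KIF20B (0.46), a kinesin of the KIF20A family, and at the other end RCC2 (-0.34) and PPP1CA (-0.25), a catalytic subunit of protein phosphatase 1. KIF20B was at 155, 163 and 221 CPM in CTRL and 242, 273 and 228 CPM in SG1, with the groups apart and an edgeR adjusted p of 0.913. In SG3 10 of 36 were positive with a median of -0.06, between KIF23 (-0.26), the kinesin partner of RACGAP1 in centralspindlin, and NUSAP1 (0.19). CDK1 (-0.22), the mitotic kinase, and NPM2 (0.10) were the next. In SG1 against SG3 28 of 36 were positive with a median of 0.23, led by NUSAP1 (0.77) and KIF18A (0.63), a kinesin of chromosome alignment, with RCC2 (-0.41) and SEPTIN9 (-0.28) lowest. All SG1 libraries lay above all SG3 libraries in 15 of the 36, beside 6.26% of all genes tested, so ECT2 and ANLN were not alone in this. No gene of this list was called in any of these 3 comparisons.

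In KIF20A_OE against EV, 34 of these 36 genes were tested, 9 were higher, 9 lower and 16 not called, beside 46.2% higher and 23.4% lower of all genes tested, with a median of 0.06. The nonmuscle myosin heavy chains went opposite ways. MYH10 rose by 3.52 on the log2 scale, from 23.8, 13.6 and 53.4 FPM to 322, 324 and 285 FPM (limma adjusted p = 0.000206). MYH9 fell by 1.82, from 2045 ± 337 to 579 ± 93.3 FPM (adjusted p = 2.17e-05). In CTRL, which was scaled separately, MYH10 was at 158 to 174 CPM, between EV and KIF20A_OE. MYH9 in CTRL was at 1658 to 2562 CPM, around the EV values. HASPIN, the histone kinase that marks centromeres for the passenger complex, rose by 1.34 (adjusted p = 0.000286). SEPTIN7, a filament partner of ANLN, fell by 1.11 (adjusted p = 0.000127).

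Regulators of late cell-cycle transcription were described in the same way. FOXM1, the forkhead activator of G2 and mitosis genes, was at 181, 176 and 155 CPM in CTRL, 182, 184 and 166 CPM in SG1 and 134, 186 and 186 CPM in SG3, with log2 differences from CTRL of 0.05 and -0.02. MYBL2, its partner at CHR elements, had 0.01 and -0.08, E2F1 -0.30 and -0.03, and the inhibitor CDKN1A -0.16 and -0.07. None of the 22 regulators was called in the depletion dataset, and 16 and 8 of them were positive in SG1 and SG3. In KIF20A_OE 10 of 22 were higher and 1 lower, beside 46.2% and 23.4% of all genes tested. MYBL2 rose from 72.7, 109 and 77.6 FPM to 576, 499 and 588 FPM, by 2.69 on the log2 scale (limma adjusted p = 2.49e-06), with the groups far apart. E2F1 rose by 0.86 (adjusted p = 0.000933), FOXM1 by 0.67 (0.0106), a call that ended under TMM scaling (0.30, 0.168), and CDKN1A had -0.0069 (0.989). Of 20 G1/S genes, 17 were higher in KIF20A_OE with a median of 1.16, beside 46.2% of all genes tested and a median of 0.37 over them, which TMM scaling takes to 0.02. In SG1 and SG3 none was called, with medians of -0.16 and -0.08, and in each 17 were negative and 3 positive. All SG1 libraries lay below all CTRL libraries in 7 of the 20 and above them in 0, beside 1210 below and 832 above of 16786 genes tested. In SG3 the libraries overlapped with CTRL for all 20. No test of the list as a whole was made.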

How the data were processed

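RNA sequencing of 15 libraries was analysed in 5 groups of 3, with groups and replicate numbers taken from the sample titles. The depletion dataset was deposited as raw counts per gene. For the overexpression dataset the labels name FPKM, yet every deposited column added up to 1000000 and held only whole multiples of 1 step per column, and was taken as fragments per 1000000 (FPM, the fragment form of CPM). Fragment numbers recovered from the step were whole for 100% of values within 0.001. The planned design assumed FPKM, and its test on the log2 scale was kept. The submitters' processing notes list Trim Galore 0.6.4, STAR 2.7.3a, featureCounts and Subread 1.6.3 with build hg38. The strand setting and the annotation release (not given in the sources used here) remain unknown.

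Counts were tested with edgeR 4.0.16 (quasi-likelihood, TMM, default filter, 9 libraries in a single fit) and log2(FPM + 1) with limma 3.58.1 (trend, robust; genes averaging 1 FPM or more), in R 4.3.3. P-values were adjusted by Benjamini-Hochberg over all genes tested, at a threshold of 0.05. Gene models came from GENCODE 29, which matched 96.3% and 97.3% of identifiers, and GC content from the longest transcript. The floor for an undetected gene was 3 counts, or 0.0588 to 0.188 CPM or FPM, for counting error only. Both tests were checked on simulated data. Same-numbered libraries of different groups had deviations that correlated by -0.11 to 0.16, so numbers were not taken to pair samples.

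The genes and lists were chosen with earlier results of these data known. The 10 genes and KIF20A are named, with the 2 highest and 2 lowest of the cytokinesis list in each comparison, FOXM1, MYBL2, E2F1 and CDKN1A, and the 5 genes of most similar pattern. Alternatives covered the tool, scaling, filters, pseudocount, the replicate block, each left-out library and, chosen after the data were seen, base composition, TMM-scaled FPM and the summed PRC1 locus.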

Additional observations from a re-analysis of the deposited data

Results flagged for a closer look

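ANLN, the actin and septin scaffold of the contractile ring, had all 3 SG1 libraries above the CTRL mean and all 3 SG3 libraries below it. Levels were 817 to 1184 CPM in SG1 and 678 to 734 CPM in SG3, and the group means of log2 levels differed by 0.49. The CTRL libraries ran from 641 to 936 CPM, a range that held all 3 SG3 libraries and the lowest SG1 library. The direct test of SG1 against SG3 gave an edgeR adjusted p of 0.861, so the difference did not pass. With the sign of the GC difference as a block that difference was 0.30, against 0.51 in the main fit.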

How the results depend on the processing

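Across all alternatives 0 of the 10 genes was called in the depletion comparisons, and 6 to 8 in KIF20A_OE against EV, where INCENP, BIRC5, PLK1, PRC1, ANLN and ECT2 kept direction and call in each one run. The edgeR fit called 0 genes in each depletion comparison, with 770, 200 and 795 at an unadjusted p under 0.05 in SG1 against CTRL, SG3 against CTRL and SG1 against SG3. DESeq2 called 2, 4 and 4 genes, the fit with no low-count filter 91, 8 and 77, and limma-voom 0 in each. Replicate numbers were not taken to pair samples, though pairing was not excluded, and the replicate block changed no call of the 10 genes. With the replicate block 0 genes were called in each depletion comparison and 10530 in KIF20A_OE against EV, 7 of the 10 among them.

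Some differences that had not passed the test changed sign, among them RCC2, which had been -0.34 in SG1 against CTRL and -0.41 in SG1 against SG3, where SEPTIN9 had been -0.28 and E2F1 -0.26. In SG1 against CTRL, AURKB was 0.042 with a GC correction, 0.25 with GC side as a block and 0.17 among negative libraries, BIRC5 0.033 and 0.078 in the first of these 2, CDKN1A 0.017 with the correction and 0.51 among negative libraries, and RCC2 0.14 with the block. In SG1 against SG3, CDKN1A was 0.036 with the correction, RCC2 0.14 with the block and 0.40 among negative libraries, where E2F1 was 0.035 and SEPTIN9 0.034. In SG3 against CTRL, positive libraries gave RACGAP1 0.083, INCENP 0.0036, BIRC5 0.064, CDCA8 0.072, PLK1 0.12, ANLN 0.026, FOXM1 0.059, MYBL2 0.0031, E2F1 0.077 and NPM2 -0.28, and negative libraries PRC1 -0.24, KIF4A -0.039 and CDKN1A 0.89. There the summed locus gave PRC1 -0.18, and no filter FOXM1 0.014 and E2F1 0.0008. In KIF20A_OE against EV, RACGAP1 was -0.29 with edgeR, -0.26 with TMM scaling and -0.12 with a GC correction, and KIF4A -0.0049 with edgeR. The FOXM1 call ended with edgeR (0.27, adjusted p = 0.224), TMM scaling (0.30, 0.168) and a GC correction (0.35, 0.131). The cause of these changes was not tested.

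Leaving out 1 library at a time gave 0 to 1 called genes in SG1 against CTRL (1 without SG1 replicate 2) and 0 to 5 in SG1 against SG3 (5 without SG3 replicate 1). In SG1 against CTRL the ranges that crossed 0 were INCENP -0.10 to 0.12, BIRC5 -0.11 to 0.081, FOXM1 -0.03 to 0.099, MYBL2 -0.12 to 0.072 and CDKN1A -0.42 to 0.053. In SG3 against CTRL they were KIF4A -0.027 to 0.091, INCENP -0.21 to 0.15, PLK1 -0.20 to 0.15, PRC1 -0.12 to 0.33, RACGAP1 -0.14 to 0.043, ANLN -0.23 to 0.055, AURKB -0.34 to 0.012, BIRC5 -0.25 to 0.028, CDCA8 -0.18 to 0.061, NPM2 -0.25 to 0.43, FOXM1 -0.10 to 0.15, MYBL2 -0.25 to 0.14, E2F1 -0.13 to 0.12 and CDKN1A -0.32 to 0.088. In SG1 against SG3 they were INCENP -0.12 to 0.25, PRC1 -0.12 to 0.33, AURKB -0.095 to 0.24, BIRC5 -0.053 to 0.24, FOXM1 -0.098 to 0.15, MYBL2 -0.13 to 0.26 and CDKN1A -0.23 to 0.10. In KIF20A_OE against EV they were CDCA8 -0.23 to 0.13, RACGAP1 -0.0017 to 0.32 and CDKN1A -0.27 to 0.50. Depth limits PRC1 and NUSAP1. On counts simulated for the 3 depletion comparisons at this size, edgeR recovered 98.5 to 100% of 2-fold and 40.3 to 53.7% of 1.5-fold changes. The simulation gave all genes the same spread and left out the GC differences between libraries. These shares therefore need not hold for the measured libraries. KIF20A, at -1.10 in SG3 against CTRL, was not called in the main edgeR fit.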
